A study of Mus musculus with 24 samples.

Results

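Mammalian cells make the polyamines spermidine and spermine by adding aminopropyl groups to putrescine, and they take them apart again by acetylation and oxidation. Here 10 genes of this turnover were followed, of the 49585 gene identifiers counted in each library. They were chosen by symbol, for their function, and each matched 1 Ensembl identifier. Amd1, Srm and Sms carry out synthesis, Sat1 and Sat2 acetylation, and Smox and Paox oxidation. Atp13a2 and Atp13a3 are P-type transport ATPases of the polyamine transport family, and Arg2 is the mitochondrial arginase, which makes ornithine, the precursor of putrescine. Atp13a2 is known to export polyamines from lysosomes, while Atp13a3 is known for polyamine uptake, so exporter describes only the first.

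In fat, polyamine turnover consumes S-adenosylmethionine and acetyl-CoA, and Sat1 is known as the gene through which acetylation limits the polyamine pool. Macrophages also make and use polyamines. Spermidine further serves to form hypusine on the translation factor eIF5A.

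Male C57BL/6J mice gave whole white fat for 24 RNA libraries in 6 groups. In one experiment, subcutaneous fat (SAT) was taken from mice fed for 20 weeks with 60% (high-fat, n = 4) or 10% (low-fat, n = 4) of calories as fat. In the other, mice lacking the antizyme inhibitor gene Azin2 (Azin2-/-) and wild-type littermates all ate 60% fat for 8 weeks. It gave SAT (3 Azin2-/-, 5 wild-type) and epigonadal fat (GAT, 4 of each genotype). The Azin2 loss was labelled as a genotype of the animal, with no tissue-specific driver, and Azin2 was lower in every Azin2-/- library than in every wild-type library of its depot (6.73 to 11.5 against 14.6 to 25.9 CPM, the count scaled to the library's total, in SAT, and 12.7 to 19.8 against 22.9 to 26.6 CPM in GAT). The labels do not state that libraries come from separate animals, so p-values measure the spread between these samples. Libraries held 31.96 to 46.62 megareads.

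Transcripts of neighbouring tissues stood out in 5 libraries. For 16 genes of skeletal muscle, SAT Azin2-/- replicate 2 summed to 79161 CPM, wild-type SAT replicate 3 to 70498 CPM and low-fat SAT replicate 5 to 26100 CPM. These 3 are called muscle-rich below. High-fat SAT replicate 6 held 7379 CPM and low-fat SAT replicate 6 held 1350 CPM, against at most 278 CPM elsewhere. For 10 epididymis genes, the library labelled low-fat SAT replicate 1 summed to 25109 CPM and wild-type GAT replicate 3 to 5948 CPM, and no other library passed 0.772 CPM. The library labelled low-fat SAT replicate 1 also held the subcutaneous marker Hoxc10 at 0.047 CPM, against 25.5 CPM or more in the other low-fat libraries. Adipocyte genes, 8 of 8 detected, summed to 7886 CPM there and to 17572 CPM or more in every other library. Comparisons that held them are therefore also given without them.

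Levels below are CPM scaled by TMM (trimmed mean of M-values) factors over all 24 libraries, called normalised CPM. Set per kilobase of annotated exon, and over the 19 libraries that do not stand apart, Sat1 had the highest median level (31.4 normalised CPM per kb). Srm (22.8), Atp13a2 (13.4), Atp13a3 (12), Amd1 (7.83) and Sat2 (5.85) followed on the same scale. Paox (3.87), Smox (3.63) and Sms (2.02) were lower, and Arg2 was at 0.0332. Among those 19 libraries, Sms varied most, 4.77-fold from its lowest to its highest library, and Atp13a2 2.98-fold. Smox varied 1.62-fold and Srm 1.75-fold. Arg2, at 0 in some of them, has no such ratio. The plot of levels shows these values for each library.

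**Figure D1:**
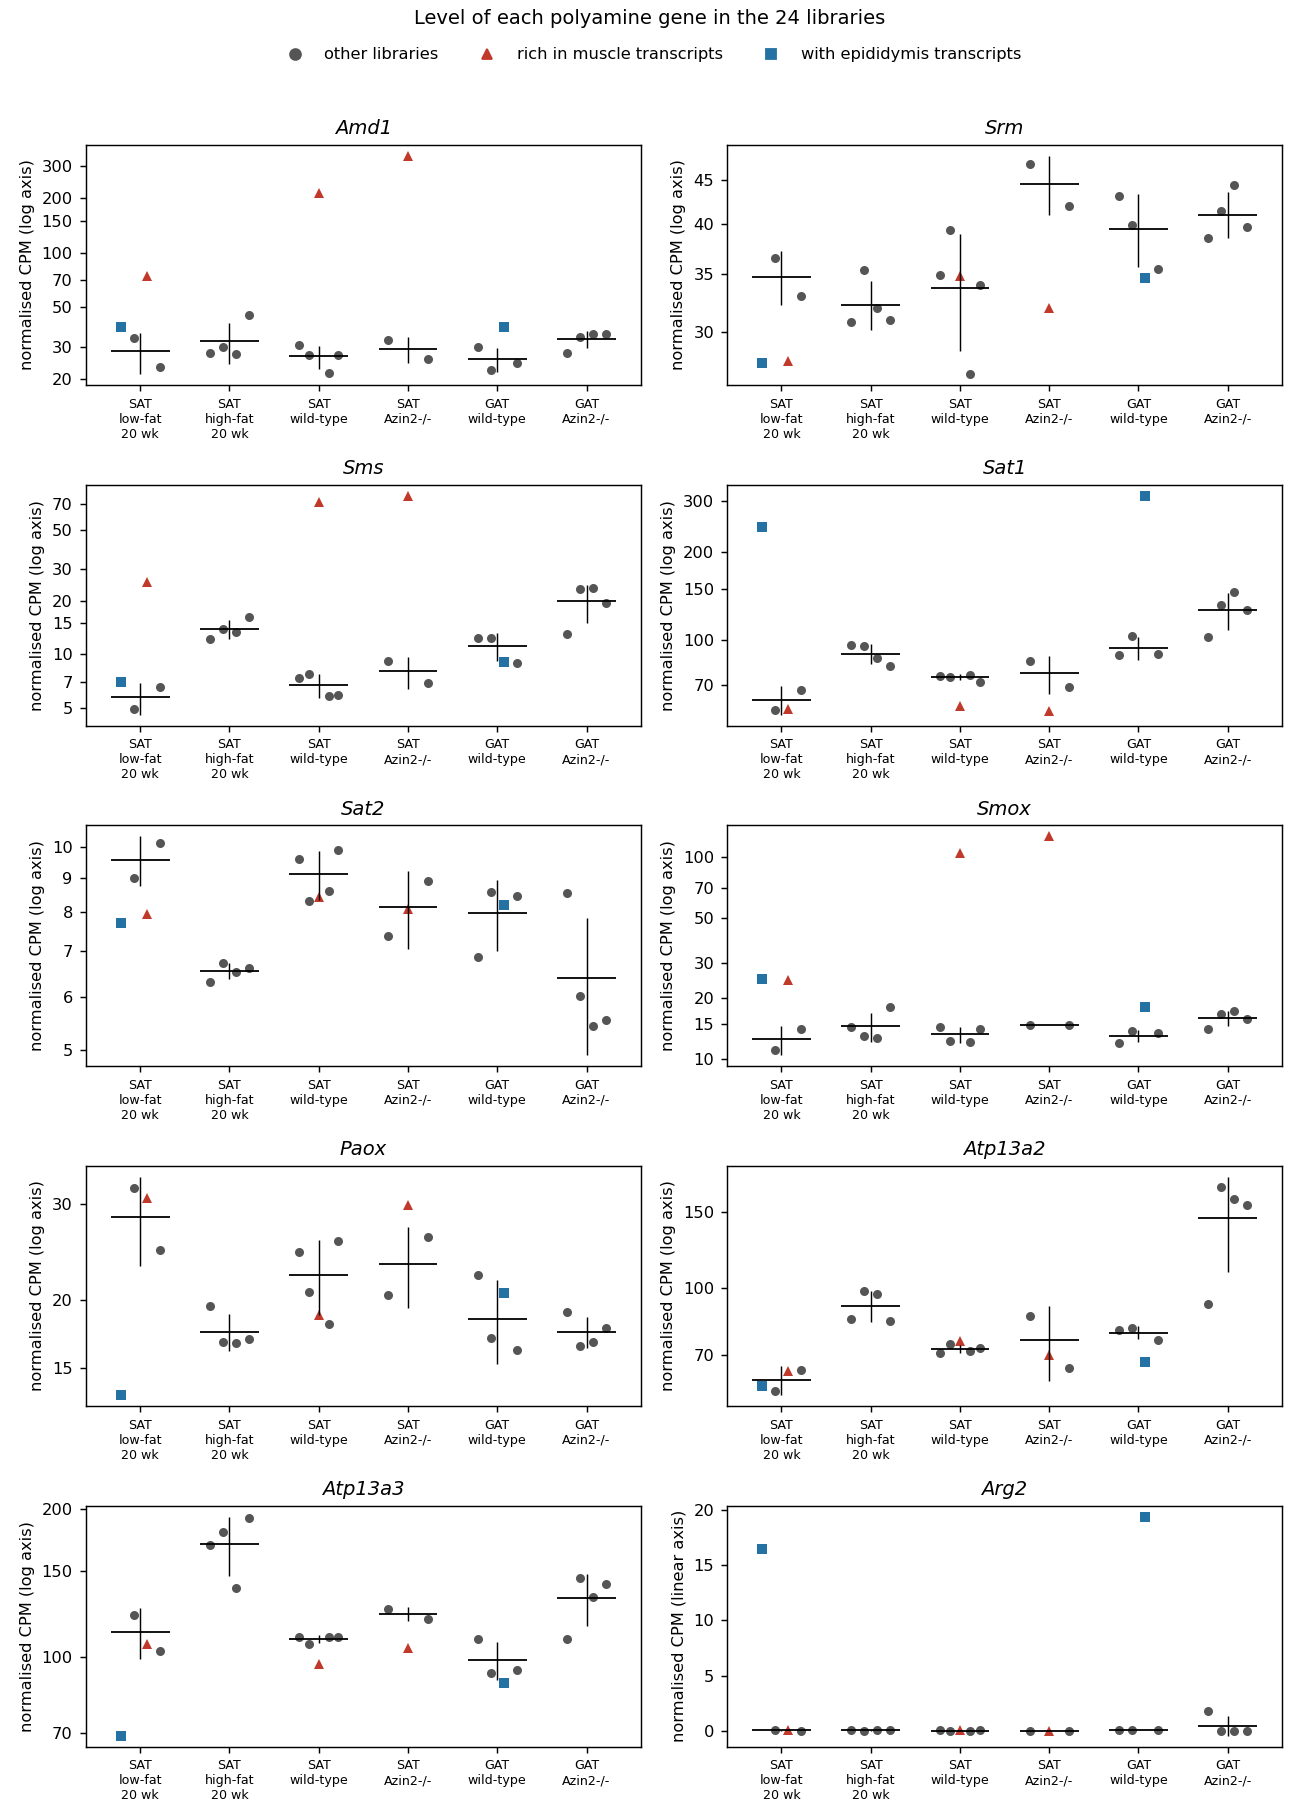
Normalised CPM of the 10 genes (y axes, log except for Arg2) in each of the 24 libraries (points) by group (x axes); lines are the mean and SD of the libraries drawn as grey circles. Red triangles, the 3 muscle-rich libraries, lie above the grey circles of their groups for Amd1, Sms and Smox. Blue squares, the 2 libraries with epididymis transcripts, lie above them for Sat1 and Arg2, and also for Amd1 and Smox.

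Amd1, Sms and Smox stood far above their group mates in SAT Azin2-/- replicate 2 and wild-type SAT replicate 3, and less so in low-fat replicate 5. There Smox (24.7 normalised CPM) was no higher than in the library labelled low-fat replicate 1 (24.9). Amd1 (ENSMUSG00000075232, chromosome 10, 40287458 to 40302186, minus strand, GRCm38) encodes adenosylmethionine decarboxylase, which makes the aminopropyl donor for both synthases. It was read at 344 normalised CPM in SAT Azin2-/- replicate 2, 215 in wild-type replicate 3 and 73.8 in low-fat replicate 5. Their group mates held 25.8 and 32.6 (Azin2-/- replicates 3 and 1), 21.5 to 30.8 (wild-type) and 33.5 and 23.2 normalised CPM (low-fat replicates 3 and 6). The 3 libraries thus stood 11.8-, 7.95- and 2.60-fold above the median of those mates, in the order of their muscle sums.

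Sms (ENSMUSG00000071708, chromosome X, 157443855 to 157492287, minus strand) encodes spermine synthase. It stood at 77.5, 72 and 25.4 normalised CPM in the same 3 libraries, 9.67-, 10.9- and 4.42-fold above the median of their mates. Smox (ENSMUSG00000027333, chromosome 2, 131491496 to 131525922, plus strand) encodes spermine oxidase, which turns spermine back into spermidine. It stood at 126, 105 and 24.7 normalised CPM, 8.59-, 7.92- and 1.97-fold above. The gene that makes spermine and the gene that oxidises it were therefore both high in these libraries.

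High-fat replicate 6, with the fourth highest muscle sum, also held the highest Amd1 (45 normalised CPM against 27.4 to 29.8), Sms (16.1 against 12.2 to 13.9) and Smox (18.0 against 12.7 to 14.5) of its group. The other genes did not share this pattern. Sat1 was the lowest of its group in SAT Azin2-/- replicate 2 (57.4 normalised CPM) and wild-type replicate 3 (59.7). Atp13a3 was also lowest there, at 104 and 96.6 normalised CPM. Atp13a2, Srm, Sat2 and Paox ranged from 0.720 to 1.28 times their mates' median in the 3 muscle-rich libraries. Groups of muscle-rich and other libraries were defined from the data here, so no test is given, and the part of muscle transcripts in these levels was not tested. Muscle-defining Ckm was read at 7117, 6336 and 1930 CPM in the 3 libraries and at 752 CPM in high-fat replicate 6.

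**Figure D2:**
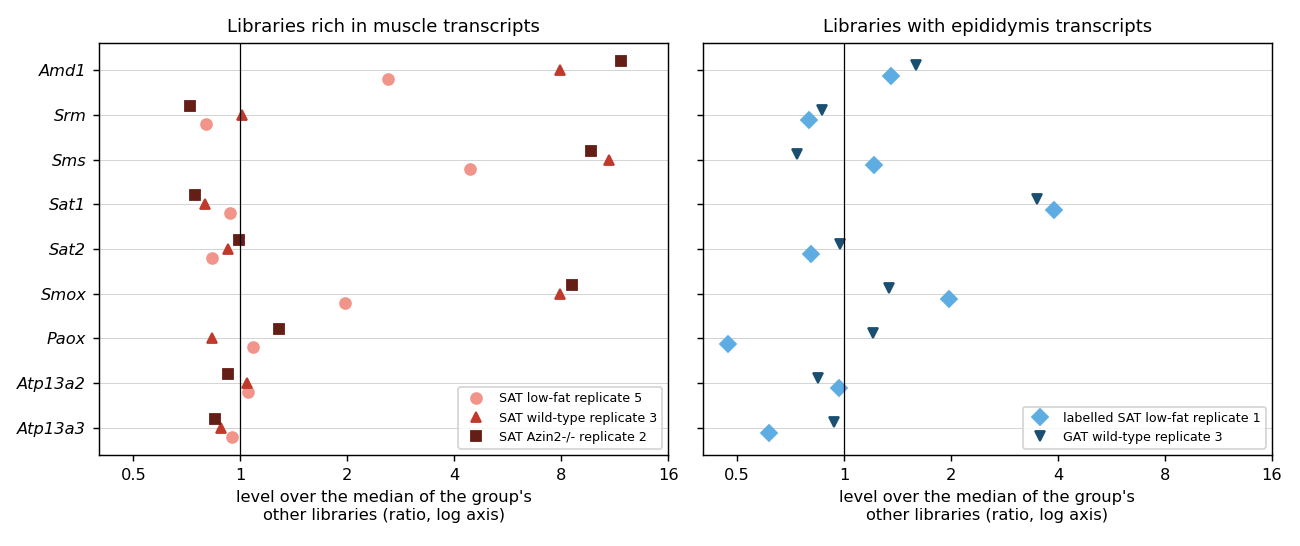
Level of 9 genes in each of the 5 libraries that stand apart, as a ratio to the median of the other libraries of the same group (x axis, log), which leave out any library that itself stands apart. Amd1, Sms and Smox lie to the right of 1 in the muscle-rich libraries (left). Sat1, and less far Amd1 and Smox, do so in the libraries with epididymis transcripts (right). Arg2 is not drawn because its mates are at or near 0.

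The 250 bases upstream of the RefSeq starts of these 3 genes (GRCm38.p6) are shown because the genes stood high together. Capitals mark CACGTG and TATANAA, searched on both strands. The windows are chr10:40302189-40302438 (minus strand), chrX:157492288-157492537 (minus strand, the more upstream of the 2 Sms starts listed) and chr2:131491612-131491861 (plus strand).
Amd1: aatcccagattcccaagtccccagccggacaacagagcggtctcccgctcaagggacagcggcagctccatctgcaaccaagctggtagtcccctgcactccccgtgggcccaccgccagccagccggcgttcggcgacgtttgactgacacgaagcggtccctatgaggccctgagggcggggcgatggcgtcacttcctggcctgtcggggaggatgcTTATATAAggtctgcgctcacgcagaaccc
Sms: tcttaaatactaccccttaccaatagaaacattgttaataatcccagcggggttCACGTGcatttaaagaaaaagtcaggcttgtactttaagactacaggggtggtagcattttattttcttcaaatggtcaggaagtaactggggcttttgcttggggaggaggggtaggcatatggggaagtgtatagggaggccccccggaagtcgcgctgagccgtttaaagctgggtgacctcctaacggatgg
Smox: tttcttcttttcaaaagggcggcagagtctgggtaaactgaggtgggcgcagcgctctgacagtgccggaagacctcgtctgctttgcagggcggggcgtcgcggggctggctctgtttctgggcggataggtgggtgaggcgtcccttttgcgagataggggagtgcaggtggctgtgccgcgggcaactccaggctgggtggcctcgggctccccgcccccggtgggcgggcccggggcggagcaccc
The Amd1 window holds TATANAA, which 10.4% of the 32851 promoter windows of this length hold, and which matches on both strands where the capitals overlap. That of Sms holds CACGTG once, a motif in 6.02% of windows. The window of the other Sms start (chrX:157491369-157491618, minus strand) holds it 0 times and GGGCGG 4 times, so the match rests on the start shown. The Smox window holds neither and has GGGCGG 6 times, a motif in 32.7% of windows. CAGCTG, found in 13% of windows, is in none of the 3. A match is a description of the letters and not a binding site. Promoter windows were matched for 7 of the 10 genes.

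Reads from near-copies limit Amd1 in particular. Of its 50-base stretches of transcript, 78.1% also occur in other annotated genes, 76.7% in Amd2, a near-identical copy with a median count of 18 per library. For Paox the share was 25.9%, mostly with Gm19680, and for Sms 17.5%, mostly with the pseudogene Sms-ps. Levels of these 3 genes are uncertain to that extent, since the sources do not say how such reads were counted. Gene counts also do not separate isoforms.

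The libraries with epididymis transcripts stood out most in other genes of the set. Sat1 (ENSMUSG00000025283, chromosome X, 155213132 to 155216449, minus strand) encodes the acetyltransferase for spermidine and spermine. It was read at 244 normalised CPM in the library labelled low-fat SAT replicate 1 and at 312 in GAT wild-type replicate 3. Their mates held 57.6 and 67.5, and 88.8, 104 and 89.6 normalised CPM. These are 3.89- and 3.48-fold differences from the mates' median. Arg2 (ENSMUSG00000021125, chromosome 12, 79130777 to 79156301, plus strand) was read at 16.5 and 19.4 normalised CPM in these libraries. In 21 of the remaining 22 it was at 0.0899 normalised CPM or less, with at most 3 counts per library and 0 counts in 6 of them. The exception was GAT Azin2-/- replicate 1, at 1.77 normalised CPM, although its epididymis genes summed to only 0.333 CPM. Arg2 shares 20.0% of its exon bases with Vti1b on the opposite strand, so reads cannot be told apart there if strand was not used. Amd1 (38.5 and 38.75 normalised CPM) and Smox (24.9 and 18.0) also lay above those mates in both libraries. Amd1 stood 1.36- and 1.59-fold and Smox 1.98- and 1.33-fold above the mates' median. High Amd1 and Smox were thus not particular to the muscle-rich libraries. Paox was low (13.4 normalised CPM, against 24.6 to 32.1) in the library labelled low-fat SAT replicate 1. The part that the epididymis transcripts play in these levels was not tested.

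The first comparison asked what 20 weeks of high-fat feeding changed in SAT. Both transporters rose and Sat2 fell with all 8 libraries. Without the library labelled low-fat replicate 1, Sat1 also rose and Paox fell, and without the muscle-rich low-fat replicate 5 as well, Sms rose 2.39-fold. Srm did not pass the test in any of these fits.

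Atp13a2 (ENSMUSG00000036622, chromosome 4, 140986873 to 141007330, plus strand) was read at 84.9, 98.2, 97.0 and 83.7 normalised CPM in high-fat replicates 3 to 6. The low-fat replicates 1, 3, 5 and 6 held 59.2, 57.7, 64.3 and 64.5 normalised CPM. All high-fat libraries lay above all low-fat libraries. How many of all genes separate in this way was not counted in any comparison. Nothing is therefore read from such separations of the set's genes, here or below. The fold was 1.47 (log2 0.55, SE 0.080, edgeR quasi-likelihood adjusted p = 0.00372 over all genes), and the call held on leaving out each library in turn (adjusted p 0.00057 to 0.017).

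Atp13a3 (ENSMUSG00000022533, chromosome 16, 30312423 to 30405975, minus strand) stood at 169, 179.6, 138 and 192 normalised CPM on the high-fat diet. It stood at 69.2, 122, 106 and 103 on the low-fat diet, again without overlap. The lowest value was in the library labelled low-fat replicate 1. Its rise was 1.68-fold (log2 0.75, SE 0.179, edgeR adjusted p = 0.0231), and 1.54-fold without that library (log2 0.62, adjusted p = 0.00329). With all 8 libraries as the start, leaving out any one of high-fat replicates 3, 4 and 6 or low-fat replicates 5 and 6 took the adjusted p to 0.0535 to 0.073.

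Sat2 (ENSMUSG00000069835, chromosome 11, 69622024 to 69623870, plus strand) is a relative of Sat1 that is known to act mainly on thialysine rather than on polyamines. It was read at 6.31, 6.73, 6.53 and 6.63 normalised CPM on the high-fat diet and at 7.70, 8.98, 7.94 and 10.1 on the low-fat diet. No high-fat library reached the lowest low-fat one. Sat2 fell by 0.42 on the log2 scale (SE 0.121, edgeR adjusted p = 0.0423). The call was lost on leaving out any library except the one labelled low-fat replicate 1 (adjusted p 0.0628 to 0.125), without which it fell by 0.47 (adjusted p = 0.00798).

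With all 8 libraries, 3 of the 9 members tested were called, beside 21.2% of the 17066 genes tested. Without the library labelled low-fat replicate 1, 5 of 9 were called, beside 47% of 17268 genes. Without low-fat replicates 1 and 5, 6 of 9 were called, beside 42.2% of 17583 genes. Higher and lower calls made up 10.8% and 10.4% of genes in the first of these fits and 23.5% each in the second. The shares among members lie somewhat above these backgrounds, and nothing particular to the members is read from them. The median log2 difference of the 9 members was -0.28 with all libraries, where that of all genes was -0.09. Without the library labelled low-fat replicate 1 it was -0.009 (all genes -0.017). Without low-fat replicates 1 and 5 it was 0.20 (all genes -0.009), so its sign depended on the libraries held.

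Sat1 depended on the library labelled low-fat replicate 1. High-fat replicates 3 to 6 held 95.9, 95.2, 87.0 and 81.6 normalised CPM, and low-fat replicates 3, 5 and 6 held 57.6, 58.3 and 67.5. The 244 normalised CPM of the library labelled low-fat replicate 1 lay above all of them. With it, the log2 difference was -0.28 (SE 0.502, edgeR adjusted p = 0.702). Without it, Sat1 rose 1.47-fold (log2 0.55, SE 0.086, adjusted p = 0.00105).

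Paox (ENSMUSG00000025464, chromosome 7, 140115799 to 140137224, plus strand) encodes the oxidase that acts on acetylated polyamines, the products of Sat1. It stood at 19.5, 16.7, 16.7 and 17.0 normalised CPM on the high-fat diet, and at 32.1, 30.7 and 24.6 in low-fat replicates 3, 5 and 6. The library labelled low-fat replicate 1, at 13.4, lay below every high-fat library. With all libraries the log2 difference was -0.54 (adjusted p = 0.151), and without this one Paox fell by 0.74 on the log2 scale (SE 0.101, edgeR adjusted p = 0.000575). The acetylase and the oxidase that follows it thus differed in opposite directions in that fit.

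Sms showed its diet difference once the muscle-rich library was set aside. High-fat replicates 3 to 6 held 12.2, 13.9, 13.4 and 16.1 normalised CPM, and low-fat replicates 1, 3, 5 and 6 held 6.96, 4.92, 25.4 and 6.57. The muscle-rich replicate 5 was above, and the other low-fat libraries were below, every high-fat library. The log2 difference was 0.34 (adjusted p = 0.648) with all 8 libraries and 1.17 (adjusted p = 0.01) without replicate 5. Without replicates 1 and 5 it was 1.26 (SE 0.164, edgeR adjusted p = 0.000922), and 1.19 (adjusted p = 0.00175) when high-fat replicate 6 was left out too, an alternative chosen after seeing the data, in which 38.5% of genes and 6 members were called. These last fits compare 4 or 3 libraries with 2.

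Amd1 and Smox did not pass the test on diet in any of these fits. Without low-fat replicates 1 and 5, Amd1 differed by 0.19 (SE 0.260, adjusted p = 0.599) and Smox by 0.20 (SE 0.171, adjusted p = 0.378) on the log2 scale. Srm (ENSMUSG00000006442, chromosome 4, 148591503 to 148594993, plus strand), the spermidine synthase gene, was read at 32.2 ± 2.12 normalised CPM on the high-fat diet and 31.2 ± 4.32 on the low-fat diet (mean ± SD, n = 4 each). Its log2 difference was 0.03 (SE 0.108, adjusted p = 0.839).

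Other cell types moved with diet as well. The sum of 13 macrophage genes, none at 0 in any library, was 2345 to 3101 CPM on the high-fat diet and 465 to 711 CPM on the low-fat diet, and 12 of 13 were called higher with all libraries. In whole tissue, fewer cells of a type and less RNA per cell cannot be told apart. Of 8 adipocyte genes, none was called with all libraries (median log2 -0.35), and 5 were called lower and 1 higher without the library labelled low-fat replicate 1 (median log2 -0.64), the fit in which Paox, Sat2 and Aoc3 fell. The part of either cell type in the values of these genes was not tested.

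**Figure D3:**
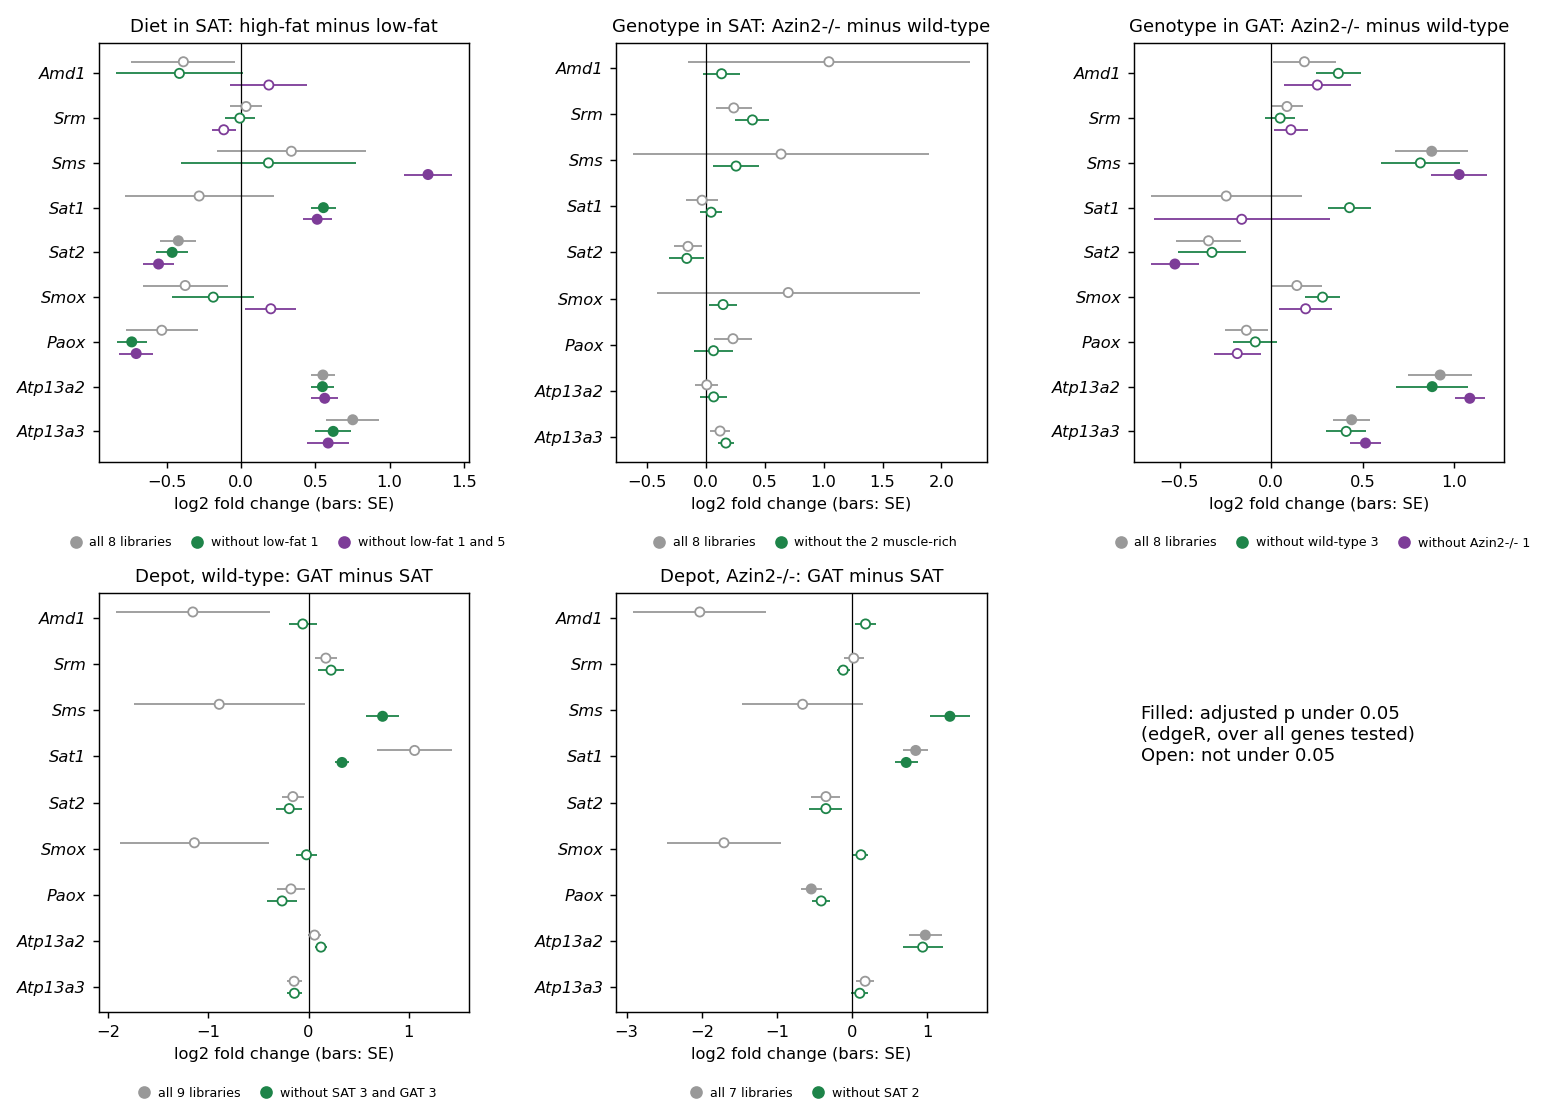
Log2 fold change (x axes) with its SE (bars) of 9 genes in 5 comparisons, with all libraries (grey) and without the libraries named under each panel (green, purple); filled points have an edgeR adjusted p under 0.05. The diet panel shows Atp13a2 filled in all 3 fits, Sat1 and Paox filled once the library labelled low-fat replicate 1 is left out, and Sms only without low-fat replicates 1 and 5.

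Of 35 further genes, of polyamine metabolism or listed beside it as other amine oxidases and near copies, 30 were tested on diet. With all 8 libraries, 4 were called (13.3%, below the 21.2% of all genes), 1 higher and 3 lower. Azin2 itself fell by 0.58 on the log2 scale (19.5 ± 2.71 to 13.2 ± 1.12 normalised CPM, adjusted p = 0.0127). Mat2a, which makes S-adenosylmethionine, fell by 0.49 (adjusted p = 0.0244). In hypusine formation, the hydroxylase Dohh fell by 0.50 (adjusted p = 0.0388) while its substrate Eif5a2 rose by 0.62 (adjusted p = 0.0371).

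Without the library labelled low-fat replicate 1, 13 of 30 were called (43.3%, beside 47% of all genes), 3 higher and 10 lower. The smallest p was that of Aoc3, an amine oxidase abundant in fat cells, from the list of other amine oxidases and near copies. It fell by 0.68 on the log2 scale (2502 ± 122 to 1562 ± 167 normalised CPM, edgeR adjusted p = 0.000499). Azin2 fell by 0.62, Adi1 and Apip of methylthioadenosine salvage by 0.40 and 0.39, ornithine aminotransferase Oat by 0.39 and Mat2a by 0.51 (adjusted p 0.0018 to 0.00336). Odc1, the ornithine decarboxylase gene at the head of the pathway, named here after its values were seen, did not pass with all libraries (log2 -0.10, SE 0.096, adjusted p = 0.477).

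The second comparison asked what the loss of Azin2 changed in SAT. No member was called with all 8 libraries, beside 0.00590% of 16948 genes (1 gene), and none without the muscle-rich pair, beside 0.0463% of 17277 genes (8 genes, 0.0405% higher and 0.00579% lower). At an unadjusted p under 0.05 there were 1745 and 2513 genes in these fits, and the DESeq2 Wald test called 338 and 691 genes but no member, giving no adjusted p for Amd1, Sms and Smox in the first of these. With the muscle-rich pair the errors were wide for Amd1 (log2 1.05, SE 1.20), Sms (0.64, SE 1.25) and Smox (0.70, SE 1.12). Without it the same differences were 0.13 (SE 0.156), 0.26 (SE 0.196) and 0.15 (SE 0.117).

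Srm had the lowest adjusted p of the members there. It stood at 46.9 and 42 normalised CPM in Azin2-/- replicates 1 and 3, and at 34.9, 39.4, 26.8 and 34.0 in wild-type replicates 1, 2, 4 and 5. These values did not overlap, but the log2 difference of 0.40 (SE 0.144) did not pass (edgeR adjusted p = 0.296). The muscle-rich Azin2-/- replicate 2 held 32, within the wild-type range. Atp13a3 also did not overlap (125 and 119.6 against 106 to 109.9 normalised CPM, log2 0.17, SE 0.070, edgeR adjusted p = 0.329). Neither did Smox (14.7 in both against 12.2 to 14.5 normalised CPM, log2 0.15, SE 0.117, edgeR adjusted p = 0.591). With 2 against 4 libraries, ranges can separate by chance. The share of all genes without overlap was not counted, so nothing is read from these separations. Atp13a2 was 86.3 and 65.1 in Azin2-/- libraries, on either side of the wild-type values of 70.8 to 74.1. Without the pair, Sat1 differed by 0.05 (SE 0.096), Sat2 by -0.16 (SE 0.148) and Paox by 0.07 (SE 0.165) on the log2 scale. None of the 29 tested genes of the further list was called in either edgeR fit. Azin2 itself was among them, although it was lower in every Azin2-/- SAT library than in every wild-type one. The lack of a call in SAT therefore does not show the lack of a difference.

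The third comparison asked the same in GAT, where Sms and both transporters rose in Azin2-/-. Atp13a2 was read at 92.0, 172, 162 and 157 normalised CPM in Azin2-/- replicates 1 to 4 and at 79.9, 80.7, 67.4 and 75.6 in wild-type replicates 1 to 4. Azin2-/- replicate 1 was close to the wild-type libraries and the other 3 lay above every wild-type library by a wide margin. The rise was 1.90-fold (log2 0.92, SE 0.176, edgeR adjusted p = 0.0408).

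Sms stood at 13.1, 23.2, 23.5 and 19.5 normalised CPM in Azin2-/- GAT and at 12.3, 12.4, 9.07 and 8.91 in wild-type GAT, again with Azin2-/- replicate 1 nearest to wild-type. It rose 1.84-fold (log2 0.88, SE 0.201, adjusted p = 0.0422 by edgeR). Atp13a3 was read at 108.6, 145, 132 and 141 normalised CPM against 108.8, 92.9, 88.4 and 94.3. Here the groups overlapped by 1 library. It rose 1.36-fold (log2 0.44, SE 0.101, adjusted p = 0.0422).

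These were 3 of 9 members tested, beside 6.77% of 16778 genes (5.45% higher and 1.32% lower). All 3 adjusted p-values lay near the threshold. Without a filter on low counts, edgeR called no member and 0 genes in all, while 5269 genes had an unadjusted p under 0.05, and the DESeq2 Wald test called the 3 members and 18.4% of genes. Leaving out Azin2-/- replicates 2, 3 or 4, or wild-type replicates 2 or 4, ended all 3 calls, with adjusted p of up to 0.144 for Sms, 0.142 for Atp13a2 and 0.146 for Atp13a3, all in the same direction. These fits called 0 genes in all, or 1 gene (0.00585%) without Azin2-/- replicate 2, so the loss was not particular to these members. Without wild-type replicate 3, which held epididymis transcripts, 7.94% of genes were called, Atp13a2 remained called (adjusted p = 0.0480), Sms was at 0.0553 and Atp13a3 at 0.0535.

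Azin2-/- replicate 1 stood apart from its group in several ways. It held the highest Azin2 of the Azin2-/- GAT libraries (19.8 CPM), and its macrophage genes summed to 2974 CPM, against 5112 to 7250 in the other Azin2-/- libraries and 1544 to 2652 in wild-type GAT. Without it, 2672 of 17053 genes (15.7%) were called, and Atp13a2 (log2 1.09, SE 0.081, edgeR adjusted p = 0.00161), Sms (log2 1.03, adjusted p = 0.00552) and Atp13a3 (log2 0.52, adjusted p = 0.0072) were among them. Sat2 then fell by 0.53 (adjusted p = 0.0337). It was read at 6.01, 5.42 and 5.55 normalised CPM in Azin2-/- replicates 2 to 4, at 8.56 in replicate 1 and at 6.86, 8.58, 8.22 and 8.46 in wild-type.

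Macrophage genes moved with genotype in GAT, 11 of 13 being called higher, with a median log2 difference of 1.28. The part of macrophage transcripts in the rise of Sms, Atp13a2 and Atp13a3 was not tested. The plot against macrophage transcripts places each library on both measures.

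**Figure D4:**
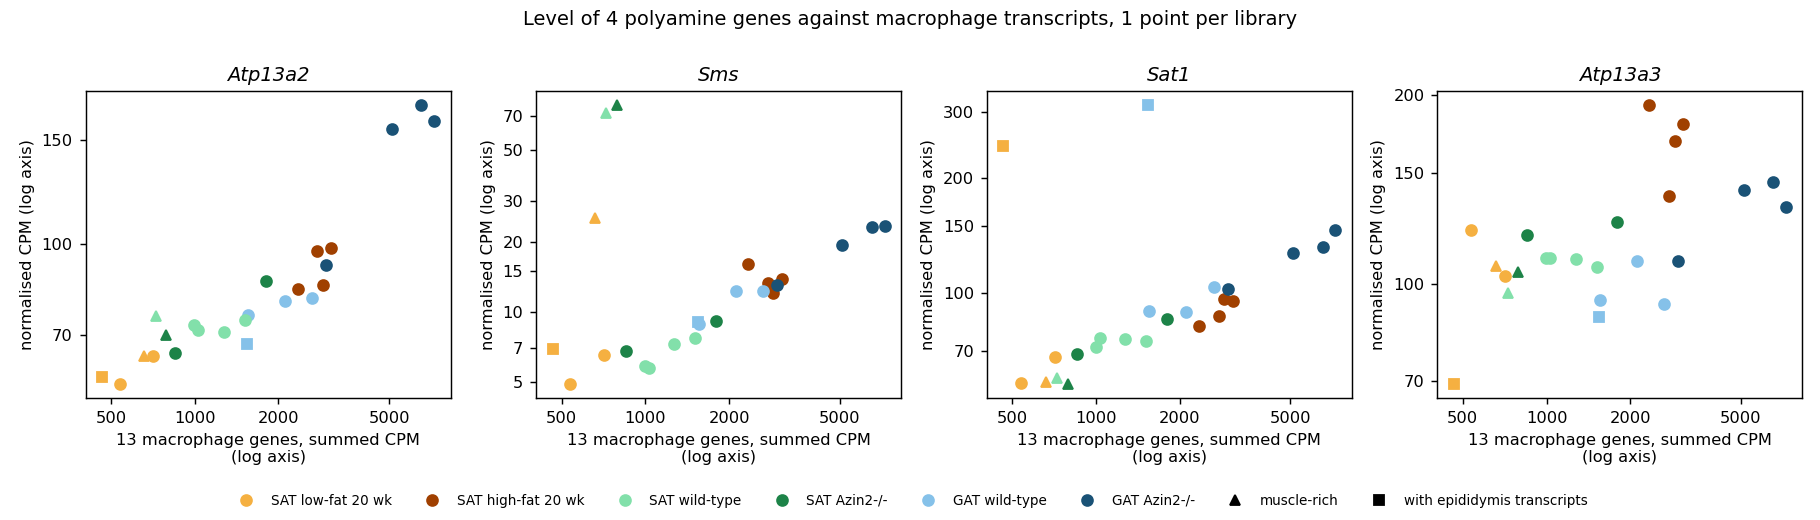
Normalised CPM of Atp13a2, Sms, Sat1 and Atp13a3 (y axes, log) against the summed CPM of 13 macrophage genes (x axes, log), 1 point per library, coloured by group; triangles are muscle-rich libraries and squares hold epididymis transcripts. The Azin2-/- GAT libraries at 5112 to 7250 CPM of macrophage genes also hold the highest Atp13a2, 157 to 172 normalised CPM. GAT Azin2-/- replicate 1, at 2974 CPM, lies among the high-fat SAT libraries for Atp13a2 and Sms. It lies above them for Sat1 (102.5 normalised CPM) and below them for Atp13a3 (108.6).

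Sat1 in GAT depended on wild-type replicate 3. Azin2-/- replicates 1 to 4 held 102.5, 132, 146 and 127 normalised CPM, and wild-type replicates 1, 2 and 4 held 88.8, 104 and 89.6, while replicate 3 held 312. The log2 difference was -0.25 (SE 0.412, adjusted p = 0.726) with all libraries and 0.43 (SE 0.120, edgeR adjusted p = 0.0600) without replicate 3. Neither value passed. Amd1 (33.1 ± 3.67 against 28.8 ± 7.32 normalised CPM, mean ± SD, n = 4 each), Srm (41 ± 2.53 against 38.2 ± 3.94), Smox (16 ± 1.37 against 14.3 ± 2.59) and Paox (17.5 ± 1.15 against 19.0 ± 2.85) did not pass either, with adjusted p of 0.477 to 0.524. Of 29 further polyamine genes tested, Azin2 alone was called with all libraries (log2 -0.74, SE 0.141, edgeR adjusted p = 0.0408). Without wild-type replicate 3, 3 of 29 were called, all lower, beside 7.94% of all genes.

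Whether the genotype effect differs between the depots was tested as an interaction over 16 libraries. No member and no gene in all was called by edgeR, beside 0% of 18033 genes, while 2016 genes had an unadjusted p under 0.05. Atp13a2 had the lowest adjusted p of the members, with a genotype effect larger in GAT by 0.92 on the log2 scale (SE 0.219, edgeR adjusted p = 0.312). The DESeq2 Wald test called 158 genes (0.876%), Atp13a2 among them (0.92, adjusted p = 0.0233). Without GAT Azin2-/- replicate 1, edgeR called 107 genes (0.596%), and Atp13a2 was one (1.08, adjusted p = 0.0168). That library held the lowest Atp13a2 of its group, and no other single library left out gave a call of a member. Without the 3 libraries of this experiment that stand apart Atp13a2 was not called (0.82, SE 0.259, adjusted p = 0.260). For Sms the interaction was 0.24 (SE 1.27, adjusted p = 0.959), and 0.57 (SE 0.312, adjusted p = 0.448) without those 3 libraries. A difference between depots is therefore not shown for Sms, although its genotype effect passed in one depot only.

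The last comparisons set GAT against SAT on the same diet for 8 weeks. In wild-type mice no member was called with all 9 libraries, beside 4.33% of 17030 genes (2.47% higher and 1.87% lower, 3735 at an unadjusted p under 0.05), while the DESeq2 Wald test called 10.5% of genes and Sat1 (log2 1.07, adjusted p = 0.0323). SAT replicate 3 (muscle-rich) and GAT replicate 3 (epididymis transcripts) were then left out together, which gave 6.67% of 17030 genes and 2 members. Sms rose 1.67-fold in GAT (log2 0.74, SE 0.167, edgeR adjusted p = 0.0372), with 12.3, 12.4 and 8.91 normalised CPM against 7.34, 7.77, 5.80 and 5.91 in SAT. With all libraries its log2 difference had been -0.89 (SE 0.853). Sat1 was 1.26-fold higher (log2 0.33, SE 0.074, adjusted p = 0.0349), with 88.8, 104 and 89.6 against 75.5, 74.8, 76.0 and 72 normalised CPM. All GAT values of both genes lay above all SAT values there. The share of all genes that separate so was not counted, and nothing is read from it.

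In Azin2-/- mice, 3 members were called with all 7 libraries, beside 15.2% of 16800 genes (9.13% higher and 6.04% lower). Sat1 (127 ± 18.2 in GAT, n = 4, against 70.5 ± 13.9 normalised CPM in SAT, n = 3, mean ± SD) rose 1.80-fold (log2 0.84, SE 0.165, edgeR adjusted p = 0.0231). Atp13a2 rose 1.96-fold in GAT (log2 0.97, SE 0.221, adjusted p = 0.0310), and Paox fell by 0.54 (SE 0.136, adjusted p = 0.0394), from 25.5 ± 4.71 to 17.5 ± 1.15 normalised CPM. Without the muscle-rich SAT replicate 2, 14.7% of genes were called. Sms then was 2.46-fold higher in GAT (log2 1.30, SE 0.266, adjusted p = 0.0305), against -0.66 (SE 0.810) with all libraries, and Sat1 remained called (0.72, adjusted p = 0.0331). Atp13a2 (0.94, adjusted p = 0.0595) and Paox (-0.41, adjusted p = 0.0577) did not pass there. Leaving out GAT Azin2-/- replicates 2, 3 or 4, or SAT Azin2-/- replicate 3, ended all 3 calls, with adjusted p of up to 0.0814 for Sat1, 0.0962 for Atp13a2 and 0.117 for Paox. These fits called 0.217%, 1.67%, 1.31% and 0.233% of all genes, in that order, so the loss was not particular to these members.

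Of the remaining members, Amd1, Srm, Smox and Atp13a3 did not pass between depots in any of these fits. Without the libraries that stand apart, their log2 differences were -0.06, 0.23, -0.02 and -0.14 in wild-type and 0.18, -0.12, 0.12 and 0.10 in Azin2-/-. Sat2 differed by -0.19 in wild-type and -0.35 in Azin2-/- in those fits, and it was called, at a log2 difference of -0.53 (adjusted p = 0.0398), only in the Azin2-/- fit without GAT replicate 1 (17.8% of genes called). The 2 depot comparisons share no library with each other, but each shares its libraries with the genotype comparisons. Their values stand side by side for Sms, at 0.74 in wild-type and 1.30 in Azin2-/-, and for Atp13a2, at 0.12 (SE 0.059, adjusted p = 0.250) and 0.94, all on the log2 scale and without the libraries that stand apart. Macrophage genes were called higher in GAT for 1 of 13 in wild-type and 13 of 13 in Azin2-/- with all libraries. Of 8 adipocyte genes, 0 were called in wild-type and 5 were called lower in Azin2-/- GAT (median log2 -0.60), where Paox also fell. The part of either cell type was not tested. Of the further polyamine genes, Mat2a was called lower in Azin2-/- GAT (log2 -0.53, edgeR adjusted p = 0.0202) and none was called in wild-type with all libraries. Without SAT Azin2-/- replicate 2, 3 of 29 were called, all lower, beside 14.7% of all genes. Without both wild-type replicates 3, 1 of 29 was called, higher, beside 6.67%.

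Over the 6 groups, without the 5 libraries that stand apart, the order of medians differed between genes. For Atp13a2 it ran from low-fat SAT (61.1 normalised CPM) over wild-type SAT (72), Azin2-/- SAT (75.7), wild-type GAT (79.9) and high-fat SAT (91.0) to Azin2-/- GAT (159). In that order, low-fat SAT and wild-type SAT, and wild-type GAT and high-fat SAT, had ranges that did not overlap, while the other neighbours overlapped. How common this is among all genes was not counted, so nothing is read from it. Sat1 ran in the same order (62.5, 75.2, 77.0, 89.6, 91.1 and 129.6 normalised CPM), and so did Sms (5.75, 6.62, 8.02, 12.3, 13.7 and 21.4), whose neighbours all overlapped. Atp13a3 differed, with its lowest median in wild-type GAT (94.3) and its highest in high-fat SAT (174). Diet time differs between the experiments, so experiment and time on diet cannot be told apart in these orders.

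Across the 20 libraries without low-fat replicates 1 and 5, SAT Azin2-/- replicate 2 and SAT wild-type replicate 3, Sms and Atp13a2 followed each other most among the members (Spearman rho 0.905). Sms and Sat1 gave 0.764 and Sat1 and Atp13a2 0.692, and Sat2 ran against both Sms (-0.863) and Atp13a2 (-0.839). These libraries still include GAT wild-type replicate 3, with its epididymis transcripts and high Sat1. Over the 19 without it, an alternative added after seeing the data, the same pairs gave 0.923, 0.847, 0.879, -0.863 and -0.877. Among 12154 protein-coding genes, the 2 most like Atp13a2 were S1pr2 (0.973) and C1qc (0.970), a complement gene that is on the macrophage list. Those most like Sms were Nceh1 (0.970) and Cd300lb (0.968), and those most like Sat1 were Ctsh (0.971) and Tor4a (0.961). For the remaining members the nearest gene was Ncln for Srm (0.932), Hdac3 for Sat2 (0.949), Nrp2 for Atp13a3 (0.937), Mif4gd for Paox (0.869), Zdhhc21 for Amd1 (0.863) and Atox1 for Smox (0.817). These points share groups, depth and cell makeup, and the coefficients are descriptions of 20 libraries.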

How the data were processed

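Whole SAT or GAT was sequenced in 24 libraries, stranded and paired-end after a Nucleospin RNA extraction, per the labels. What the authors deposited is a table of raw counts for each library, 1 row per Ensembl gene. The submitters' processing notes name cutadapt, STAR, HTSeq 0.6.1p1 and GRCm38 (mm10). For counting mode, strand setting and gene annotation the sources give nothing. Symbols and coordinates were taken from GENCODE M21 and promoter windows from RefSeq (GRCm38.p6).

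Groups follow the labels. The edgeR 4.0.16 quasi-likelihood test (R 4.3.3, robust, TMM, filterByExpr with minimum count 10 and total 15) was run on all genes, and a gene was called where its p after Benjamini-Hochberg adjustment was under 0.05. The test was also run on counts simulated from its own fitted model. This does not show how it behaves with libraries that stand apart. Arg2 passed the filter in none of the main fits. Fold changes are high-fat over low-fat, Azin2-/- over wild-type and GAT over SAT.

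The genes, lists and tests were chosen with earlier results of these data known. Named are all members, up to 6 called genes of the further list per comparison and the 2 genes of most similar pattern. Alternatives were DESeq2 1.42.0 (size factors, Wald test), no filter, replicate blocks and leaving out libraries.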

Additional observations from a re-analysis of the deposited data

Results flagged for a closer look

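Of 50 pairs of a gene and a group of 4 or more libraries, 13 held a library far from the others of its group, where chance gives about 1 in 20. SAT wild-type replicate 3 (muscle-rich) was far above its group for Amd1 (215 normalised CPM), Sms (72) and Smox (105), and far below it for Sat1 (59.7) and Atp13a3 (96.6). Low-fat SAT replicate 5 (muscle-rich) was far above for Sms (25.4 normalised CPM), and high-fat SAT replicate 6, which held some muscle transcripts, for Amd1 (45). The library labelled low-fat SAT replicate 1 was far above for Sat1 (244 normalised CPM) and Arg2 (16.5), and GAT wild-type replicate 3 for Sat1 (312) and Arg2 (19.4); both held epididymis transcripts. GAT Azin2-/- replicate 1 was far above for Arg2 at 1.77 normalised CPM. High-fat SAT replicate 3 was flagged for Paox at 19.5 normalised CPM, a small difference from mates that lay close together (16.7 to 17.0). SAT Azin2-/-, with 3 libraries, was too small for this check.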

How the results depend on the processing

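Without a filter on low counts, 2335 genes were called on diet (3622 with it), 124 by genotype in SAT without the muscle-rich pair (8), 0 by genotype in GAT (1136; members 0 in place of 3) and 490 between wild-type depots (738). The DESeq2 Wald test called 338 genes by genotype in SAT (1), 691 without the muscle-rich pair, 3079 in GAT, 1784 between wild-type depots (1 member), 4387 between Azin2-/- depots (2549) and 158 in the interaction (1 member). Without low-fat replicates 1 and 5, 7427 genes and 6 members were called on diet, and 6701 genes and 6 members without high-fat replicate 6 too, an alternative chosen after seeing the data. Without SAT and GAT wild-type replicates 3, 1136 genes and 2 members were called between wild-type depots. The DESeq2 Wald test gave no adjusted p for Amd1, Sms and Smox in the genotype, depot and interaction fits that held the muscle-rich SAT libraries. The cause of these shifts was not tested.

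Whether libraries of both depots that share a mark come from 1 mouse is not stated in the labels, and no pairing was assumed. Same-numbered libraries deviated together at r of 0.27, -0.05 and 0.05 on diet and 0.19, -0.05 and -0.06 between wild-type depots, and the 2 SAT genotype pairs (0.854 and 0.538) differ in genotype. The first of these 2 is the muscle-rich pair. Pairs by genotype in GAT gave 0.11, -0.22 and 0.004, and Azin2-/- depot pairs -0.05 and 0.04. Several pairs hold a library that stands apart, so these values do not decide on pairing. The replicate block kept only libraries whose mark occurs in both groups, so these fits also left libraries out. On diet it dropped high-fat replicate 4 and the library labelled low-fat replicate 1, without which alone 8109 genes and 5 members were called. It called 5802 genes and 5 members there. In GAT it dropped replicate 1 of each genotype and called 1692 genes. Between wild-type depots it called 0. By genotype in SAT it kept Azin2-/- replicates 2 and 3 and wild-type replicates 3 and 5, and called 0. Between Azin2-/- depots it kept replicates 2 and 3 of each and called 889. The call of Paox was lost there (log2 -0.74, edgeR adjusted p = 0.0946). No paired analysis was possible for genotype in SAT without the muscle-rich pair because the groups share only 1 mark.

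Leaving out each replicate in turn gave 1802 to 8109 called genes and 1 to 5 members on diet, and 6867 to 7559 and 5 to 6 without the library labelled low-fat replicate 1. It gave 0 to 4 genes by genotype in SAT, 0 to 44 without the muscle-rich pair, 0 to 2672 in GAT (0 to 4 members), 296 to 909 between wild-type depots, 36 to 3414 in Azin2-/- (0 to 4 members) and 0 to 107 in the interaction (0 to 1). Of 72 member values, 28 changed sign in at least 1 of these fits, mostly Amd1, Sms, Smox and Sat1. Amd1 ran from -1.13 to 2.32 by genotype in SAT, Sms from -1.29 to 2.20 and Smox from -1.10 to 1.95, and Sat1 ran from -0.43 to 0.43 by genotype in GAT. A sign change with a call occurred for Sat1 on diet (log2 -0.49 to 0.55 over single libraries left out, 0.55 without low-fat replicate 1, 0.53 with the block, 0.51 without replicates 1 and 5, 0.56 without high-fat replicate 6 as well), for Sms between wild-type depots (0.74 without both replicates 3) and for Sms between Azin2-/- depots (-1.14 to 1.30 over single libraries left out, 1.30 without SAT replicate 2), each time in fewer libraries.

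Among the further polyamine genes, leaving out replicates gave 0 to 13 calls on diet (4 with all), 12 to 15 without the library labelled low-fat replicate 1 (13), 0 to 4 in GAT, 0 to 1 between wild-type depots and 0 to 5 between Azin2-/- depots. Arg2 did not pass the filter with all libraries, and was tested but not called without the filter and in interaction fits without a SAT Azin2-/- library.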
